A study of Homo sapiens with 9 samples.

Results

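The long noncoding RNAs MALAT1, NEAT1, H19, MEG3, HOTAIR, MIR31HG, PVT1, GAS5, SNHG1 and TUG1, all widely linked to cancer, were chosen by name and followed through the RNA of 3 related breast cell lines. They are 10 of the 62666 genes in the count table, and 9 of them had enough counts to be tested, since MEG3 was at 0 in every library. The lines are MCF10A, an immortalised mammary epithelial line that does not form tumours, MCF10AT1, a premalignant derivative that carries activated HRAS, and MCF10Ca1a, a malignant derivative obtained through passage in mice. Polyadenylated RNA of each line was sequenced in 3 libraries, as part of a study of gene expression and 3-dimensional genome organisation in breast cancer progression. Horse serum was at 2.5% for MCF10AT1 and at 5% for MCF10A and MCF10Ca1a, and all 3 media held insulin, epidermal growth factor, hydrocortisone, cholera toxin, glutamine and bicarbonate. Line and serum cannot be told apart for MCF10AT1. Each stage is a single cell line, and the labels do not say that the libraries of a line came from separate cultures, so every p-value below measures the spread between these libraries, which may be technical.

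Long noncoding RNAs are transcribed and processed much like messenger RNAs but are not read into protein, and many of them act in the nucleus or serve as precursors of small RNAs. NEAT1 builds the paraspeckle, a nuclear body assembled around its long form, and MALAT1 accumulates in nuclear speckles, where splicing factors are stored. GAS5 and SNHG1 carry small nucleolar RNAs (snoRNAs) in their introns, H19 and MEG3 are imprinted and expressed from the maternal chromosome, HOTAIR lies in the HOXC cluster, MIR31HG is the host transcript of miR-31, PVT1 is the downstream neighbour of the MYC oncogene, and TUG1 is a widely expressed RNA shared between nucleus and cytoplasm.

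Positions are those of GENCODE 29 on GRCh38. NEAT1 (chr11:65422774-65445540, plus strand) and MALAT1 (chr11:65497688-65506516, plus strand) are neighbours, with SNHG1 (chr11:62851988-62855914, minus strand) and H19 (chr11:1995176-2001470, minus strand) on the same chromosome. GAS5 is at chr1:173863900-173868882 (minus strand), MIR31HG at chr9:21455642-21559669 (minus strand), HOTAIR at chr12:53962308-53974956 (minus strand), MEG3 at chr14:100779410-100861031 (plus strand) and TUG1 at chr22:30969245-30979395 (plus strand). Several share bases with other genes. HOTAIR exons overlap HOXC11 on the opposite strand, GAS5 exons overlap ZBTB37 and GAS5-AS1 on the opposite strand, and the IFNE gene lies in a MIR31HG intron on the same strand. The libraries were made with a stranded kit, but the strand setting of the counting is not given in the sources used here, so reads from these overlapping pairs may not be fully separated.

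NEAT1 has short forms and a long form that start in the same region and end far apart, and the ends are shown because the forms moved differently between the lines. The short transcript ENST00000499732.3 ends at position 65426457 and the long transcript ENST00000501122.2 at position 65445540 of chromosome 11. The last bases of both transcripts were read from the GENCODE 29 transcript sequences.
NEAT1 short form 3′ end: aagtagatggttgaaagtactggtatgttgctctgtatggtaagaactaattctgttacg
NEAT1 long form 3′ end: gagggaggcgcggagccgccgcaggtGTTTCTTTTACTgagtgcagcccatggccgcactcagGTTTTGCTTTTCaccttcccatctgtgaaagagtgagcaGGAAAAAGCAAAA
Capitals mark a pair of T-rich stretches and the A-rich stretch at the very end. In the RNA these fold into a triple helix that protects the end in place of a poly(A) tail, and the mature end of MALAT1 is made the same way. The labels give poly(A) enrichment for all libraries, so the share of long NEAT1 and of MALAT1 molecules that the libraries captured is unknown.

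The microRNAs made from these hosts are shown because they are what MIR31HG and H19 are most often named for. miR-31 lies in a MIR31HG intron, and the hairpin of miR-675 lies in an H19 exon. The mature sequences are those of RefSeq on GRCh38.p14, with the seed (bases 2 to 8, which pair with targets) in capitals.
hsa-miR-31-5p: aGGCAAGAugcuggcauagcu
hsa-miR-675-5p: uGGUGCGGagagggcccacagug
hsa-miR-675-3p: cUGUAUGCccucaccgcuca
The 3 seeds differ from one another. MicroRNAs themselves are too short for this library type and were not measured.

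The libraries held 32.9 M to 69.5 M estimated counts (M for mega, counts per gene as Salmon estimated them), and the 3 MCF10Ca1a libraries were the shallowest (32.9 M to 35.2 M). Together the 10 RNAs made up 0.0682% to 0.0947% of a library. All 9 mammary epithelial markers, among them EPCAM, KRT5 and TP63, were at 1 TPM (a level per transcript length, which lets genes be set beside each other) or more in every line, with a summed level of 2529 to 3472 TPM in MCF10A, 3600 to 4032 TPM in MCF10AT1 and 4438 to 4579 TPM in MCF10Ca1a. Single epithelial markers went both ways. In MCF10A, MCF10AT1 and MCF10Ca1a, KRT14 was at 205, 38.8 and 4.78 TPM on average. KRT5 was at 1423, 1632 and 420 TPM and EPCAM at 40.1, 170 and 390 TPM. Summed fibroblast markers were at 6.43 to 7.21, 27.6 to 31.5 and 1.92 to 2.29 TPM in these lines, where DCN held most of the MCF10AT1 value. Summed immune markers were at 16.0 to 22.5, 6.13 to 6.69 and 30.4 to 33.4 TPM, and CD68 held most of the MCF10Ca1a value. CD68 was at 10.8, 2.66 and 31.1 TPM on average, and CD14 at 8.62, 3.68 and 0.205 TPM. Summed endothelial markers were at 0.674 to 0.901, 0.868 to 1.32 and 15.6 to 20.8 TPM, through PECAM1, and adipocyte markers at 0.0131 to 0.0449, 0.0661 to 0.125 and 6.19 to 7.02 TPM, through PLIN1. CD3E of T cells was at 0 in every library, PTPRC of leukocytes reached at most 0.0377 TPM, and the endothelial genes VWF and CDH5 at most 0.00806 and 0.00791 TPM. The part of cells other than epithelium in the results was not tested. In bulk RNA, fewer cells of a type and less RNA per cell cannot be told apart.

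MCF10A replicate 1 stood apart: the chi-square of its gene counts against replicates 2 and 3 was 32.2 and 74.9 per degree of freedom, against 11.6 between replicates 2 and 3. It held the lowest level of NEAT1, MALAT1, GAS5 and SNHG1 of the MCF10A libraries and the highest of H19. Without it the log2 fold changes of MCF10Ca1a against MCF10A were -2.09 for NEAT1, -0.98 for MALAT1, -1.01 for SNHG1, -0.86 for H19 and 0.24 for GAS5, all past the threshold by edgeR. MCF10AT1 replicate 3 also stood apart from its line, at 14.7 and 17.1 per degree of freedom against replicates 1 and 2, beside 3.61 between those. It held the highest NEAT1, MALAT1, GAS5, SNHG1 and H19 of the MCF10AT1 libraries. Without it the log2 fold changes of MCF10Ca1a against MCF10AT1 were -2.00 for NEAT1, -0.94 for MALAT1, -0.84 for SNHG1, -0.74 for H19 and 0.44 for GAS5, again past the threshold by edgeR, and 2 of the RNAs in place of 3 were called in MCF10AT1 against MCF10A.

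The levels spanned about 3 orders of magnitude, and GAS5 was the highest of the 10 in all 3 lines. In MCF10A the mean TPM was 624 for GAS5, 170 for SNHG1, 81.5 for NEAT1, 44.2 for MALAT1, 39.0 for TUG1 and 21.5 for PVT1. H19 at 2.46 TPM, MIR31HG at 0.856 TPM and HOTAIR at 0.628 TPM were low, and MEG3 was at 0. The libraries of every neighbouring pair in this order were separated except those of MALAT1 and TUG1, which overlapped.

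In MCF10AT1 the order changed in 1 place, with MIR31HG (4.88 TPM) above H19 (1.81 TPM). The order in MCF10Ca1a differed more. GAS5 stood at 1086 TPM and SNHG1 at 113 TPM, then PVT1 at 77.1 TPM, above TUG1 (40.9 TPM), MALAT1 (29.9 TPM) and NEAT1 (21.9 TPM). The libraries of TUG1, MALAT1 and NEAT1 overlapped from one to the next in that order, as did those of MIR31HG (2.25 TPM), HOTAIR (2.00 TPM) and H19 (1.58 TPM).

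Among 14735 long noncoding genes matched to GENCODE 29, GAS5 ranked 3, 3 and 2 by mean TPM in MCF10A, MCF10AT1 and MCF10Ca1a. SNHG1 ranked 8, 8 and 13. NEAT1 went from rank 13 in MCF10A and 14 in MCF10AT1 to 58 in MCF10Ca1a, and PVT1 from 63 and 52 to 18. HOTAIR ranked 1022, 893 and 622.

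**Figure D1:**
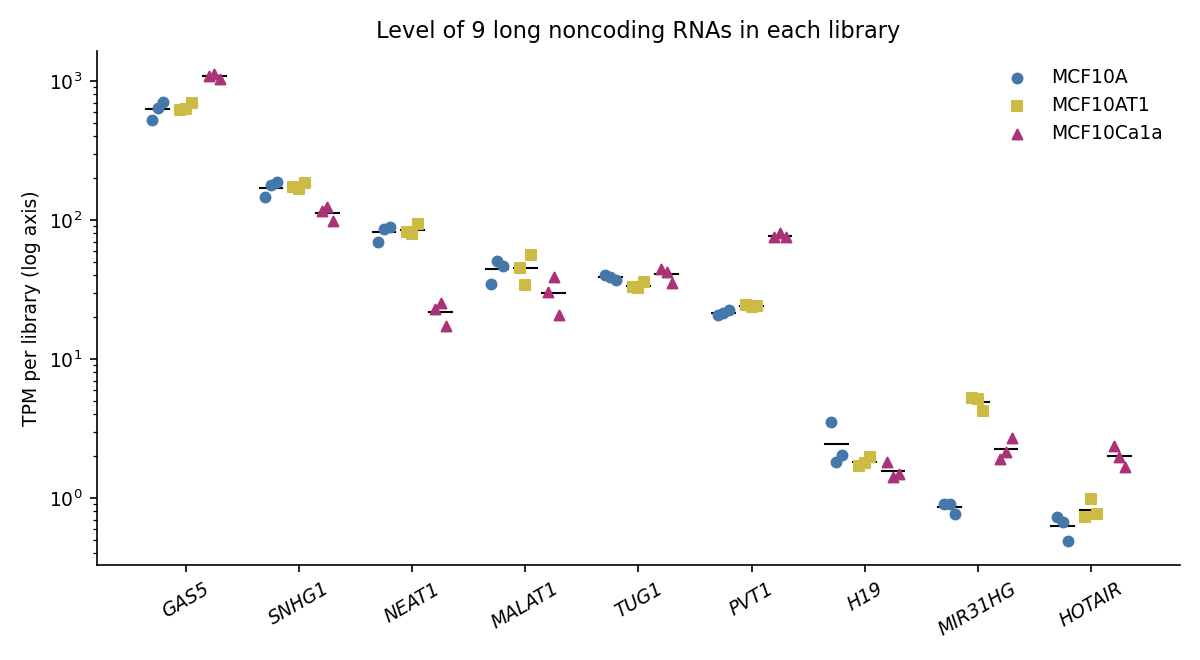
TPM of 9 of the 10 long noncoding RNAs on a log axis, 1 point per library and a bar at the mean of the 3 libraries of each line. MEG3 was at 0 in all 9 libraries and is not drawn. PVT1 (77.1 TPM) and NEAT1 (21.9 TPM) in MCF10Ca1a, and MIR31HG (4.88 TPM) in MCF10AT1, stand apart from the other lines.

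Between MCF10AT1 and MCF10A 3 of the 9 tested RNAs changed, all upward, by edgeR's quasi-likelihood test at an adjusted p under 0.05. Of all 17910 genes tested 61.6% passed, 29.8% upward and 31.8% downward, and of the 2229 long noncoding genes tested 46.9% passed (28.8% upward, 18.1% downward). Between MCF10Ca1a and MCF10AT1 8 of the 9 changed, 3 upward and 5 downward, where 78.4% of all genes passed (38% upward, 40.3% downward) and 69.8% of long noncoding genes (41.8% upward, 27.9% downward). Between MCF10Ca1a and MCF10A 8 of the 9 changed, 4 upward and 4 downward, where 80.9% of all genes passed (39% upward, 41.9% downward) and 72.2% of long noncoding genes (45% upward, 27.2% downward).

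With most genes past the threshold, the shares of the 9 RNAs in both comparisons with MCF10Ca1a were near those of all genes, and in MCF10AT1 against MCF10A the share was lower. Their median log2 fold change was 0.15, -0.83 and -0.09 in the 3 comparisons, beside -0.0038, -0.04 and -0.05 over all genes and 0.13, 0.24 and 0.43 over the long noncoding genes. The libraries of the lines did not overlap for 3, 8 and 8 of the 9 RNAs, where this held for 65.4%, 81.9% and 81.5% of all genes. The 3 comparisons share libraries, so their values are given side by side and not as independent evidence.

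**Figure D2:**
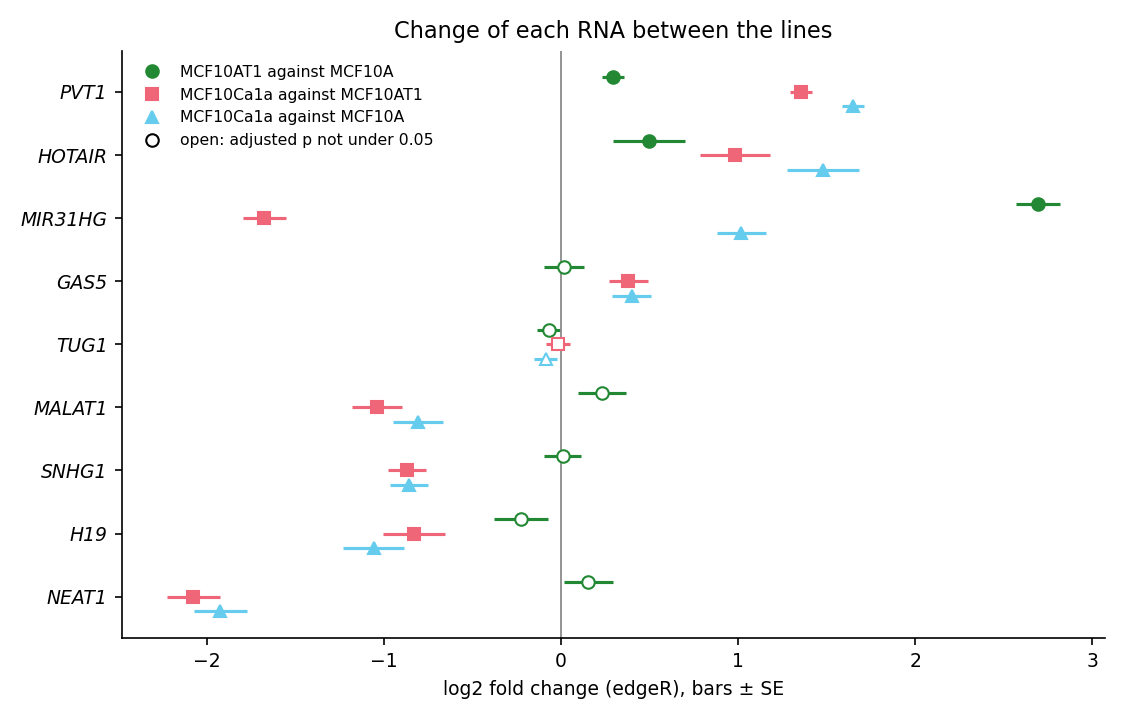
Log2 fold change of each RNA in 3 comparisons (edgeR, bars ± SE, filled symbols passed an adjusted p under 0.05). NEAT1, MALAT1, SNHG1 and H19 lie left of 0 in MCF10Ca1a, and PVT1, HOTAIR and GAS5 lie right of 0, while MIR31HG is highest in MCF10AT1 and the TUG1 symbols are unfilled in all 3 comparisons.

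NEAT1, the scaffold of paraspeckles, showed the largest fall of the 9. Its CPM, the count scaled to library depth, was 109, 152 and 160 in the 3 MCF10A libraries, 151, 142 and 175 in MCF10AT1, then 40.3, 41.4 and 29.3 in MCF10Ca1a. All 3 MCF10Ca1a libraries lay below all 6 others, while the MCF10A and MCF10AT1 libraries overlapped. NEAT1 was 4.22-fold lower in MCF10Ca1a than in MCF10AT1 (log2 fold change -2.08, SE 0.150, edgeR adjusted p = 1.55e-08) and 3.79-fold lower than in MCF10A (log2 fold change -1.92, SE 0.150, adjusted p = 2.94e-08). Against MCF10A, MCF10AT1 gave a log2 fold change of 0.15 (adjusted p = 0.358).

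The fall of NEAT1 showed in its short forms, while the level of the long form overlapped between the lines. The short transcript ENST00000645023.1, 3.30 kb long, was at 82.0 ± 16.3 CPM in MCF10A, 85.5 ± 9.0 in MCF10AT1 and 17.6 ± 4.8 in MCF10Ca1a (SD, n = 3). The short transcript ENST00000499732.3 was at 30.4 ± 5.91, 38.6 ± 4.98 and 7.74 ± 3.82 CPM. The long transcript ENST00000501122.2, 22.74 kb and a single exon, was at 4.18, 6.49 and 6.79 CPM in MCF10A, at 5.14, 5.11 and 7.15 CPM in MCF10AT1, then at 6.51, 4.96 and 4.4 CPM in MCF10Ca1a. Its 3 ranges overlapped, whereas those of both short transcripts in MCF10Ca1a lay below the other lines.

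The long transcript made up a larger share of NEAT1 in MCF10Ca1a. Its share of the NEAT1 counts was 3.84%, 4.27% and 4.23% in MCF10A, 3.39%, 3.61% and 4.07% in MCF10AT1, then 16.2%, 12.0% and 15% in MCF10Ca1a. The MCF10Ca1a shares did not overlap with the others. The log2 ratio of the long transcript to the rest of NEAT1 was 2.13 higher in MCF10Ca1a than in MCF10AT1 (SE 0.174, limma adjusted p = 2.85e-04) and 1.96 higher than in MCF10A (SE 0.174, adjusted p = 3.00e-04). The share of ENST00000645023.1 went from 58.4% in MCF10A to 47.2% in MCF10Ca1a (limma adjusted p = 0.0493), a call that was lost under 9 of 13 other settings. The short transcripts overlap the first part of the long one, so Salmon divides the shared reads by estimate, and the error of that division was not analysed here.

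**Figure D3:**
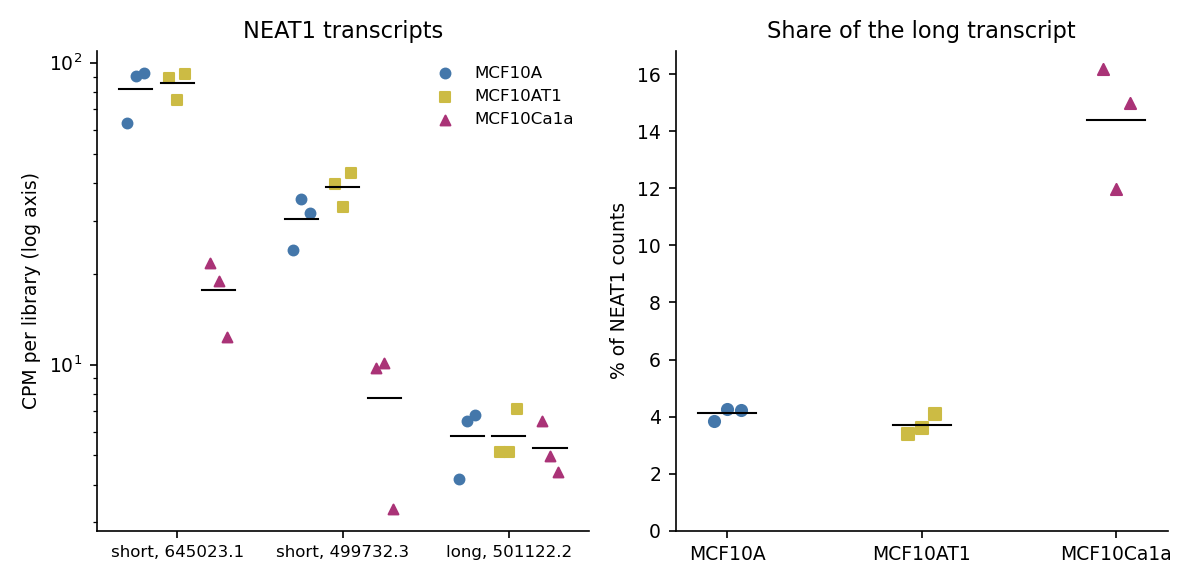
Left, CPM of a pair of short NEAT1 transcripts and of the long transcript on a log axis, 1 point per library with a bar at the mean. Right, the share of NEAT1 counts given to the long transcript, 4.11% and 3.69% on average in MCF10A and MCF10AT1 and 14.4% in MCF10Ca1a, on an axis from 0.

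Genes of paraspeckle proteins moved in both directions. Of 23 tested, 8 rose and 14 fell from MCF10A to MCF10Ca1a, where 39% of all genes were higher and 41.9% lower. The median log2 fold change of the 23 was -0.31, beside -0.05 over all genes. Between MCF10AT1 and MCF10A 4 were higher, 6 lower and 13 not called, where 29.8% of all genes were higher and 31.8% lower. ZC3H6, which encodes a zinc finger protein, rose the most, from 3.34 CPM in MCF10A to 17.9 CPM in MCF10Ca1a (log2 fold change 2.42, SE 0.0931, edgeR adjusted p = 1.55e-11).

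MALAT1, the speckle RNA, also fell in MCF10Ca1a. Its CPM was 71.2, 102 and 107 in MCF10A, 106, 97.5 and 126 in MCF10AT1, then 54.0, 59.5 and 46.7 in MCF10Ca1a. The MCF10Ca1a libraries were again the lowest 3, and those of MCF10A and MCF10AT1 overlapped. MALAT1 was 2.06-fold lower in MCF10Ca1a than in MCF10AT1 (log2 fold change -1.04, SE 0.140, edgeR adjusted p = 1.10e-05) and 1.75-fold lower than in MCF10A (log2 fold change -0.81, SE 0.140, adjusted p = 1.09e-04). Against MCF10A, MCF10AT1 gave 0.23 (adjusted p = 0.156). On log2(TPM + 1), where the median of all genes was -0.11, 0.19 and 0.08 in MCF10AT1 against MCF10A, MCF10Ca1a against MCF10AT1 and MCF10Ca1a against MCF10A, the fall of MALAT1 against MCF10AT1 was -0.60 (limma adjusted p = 0.0305), and it was not called without a filter on low values (-0.60, adjusted p = 0.106). Against MCF10A it was -0.57 on that scale (adjusted p = 0.0358), and the call was likewise lost without the filter (-0.57, adjusted p = 0.114).

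No MALAT1 transcript changed its share among 10 tested. ENST00000619449.2 held 47.8% ± 1.86 of the MALAT1 counts in MCF10A, 48.1% ± 1.14 in MCF10AT1 and 49.7% ± 3.44 in MCF10Ca1a (SD, n = 3), and ENST00000534336.2 held 44.6%, 45.5% and 45.0% on average. Of the genes of 16 nuclear speckle and MALAT1-associated proteins, 3 rose and 9 fell from MCF10A to MCF10Ca1a (median log2 fold change -0.47, beside -0.05 over all genes). Of all genes 39% were higher and 41.9% lower there. In MCF10AT1 against MCF10A 1 of the 16 was higher and 10 were lower, where 29.8% of all genes were higher and 31.8% lower. SRSF3, a splicing factor, went from 470 CPM in MCF10A and 487 in MCF10AT1 to 131 in MCF10Ca1a (log2 fold change against MCF10A -1.84, SE 0.0601, adjusted p = 3.03e-12). SRRM1, a splicing coactivator, went from 103 CPM to 204 CPM (log2 fold change 0.99, SE 0.0628, adjusted p = 3.20e-09).

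Of 6 tested protein genes near NEAT1 and MALAT1, 4 rose and 1 fell in MCF10Ca1a against MCF10A, and SLC25A45 was not called (0.38, edgeR adjusted p = 0.0836). Of all genes 80.9% were called in this comparison, 39% higher and 41.9% lower. LTBP3, which binds latent TGF-beta, rose by 1.35 (adjusted p = 2.49e-10), CDC42EP2 by 1.43 (adjusted p = 7.29e-12) and DPF2 by 0.60 (adjusted p = 4.96e-07) on the log2 scale in the same comparison. FRMD8 was lower in MCF10Ca1a than in MCF10A (-0.53, adjusted p = 2.01e-06).

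GAS5, the most abundant of the 10, rose in MCF10Ca1a. Its exons are spliced into an RNA that is bound by ribosomes and destroyed by nonsense-mediated decay (NMD), and its name stands for growth arrest specific. CPM was 242, 311 and 364 in MCF10A, 295, 294 and 340 in MCF10AT1, then 405, 409 and 395 in MCF10Ca1a. The MCF10Ca1a libraries lay above all others, and those of MCF10A and MCF10AT1 overlapped. GAS5 was 1.32-fold higher in MCF10Ca1a than in MCF10A (log2 fold change 0.40, SE 0.112, edgeR adjusted p = 0.00497) and 1.30-fold higher than in MCF10AT1 (0.38, SE 0.112, adjusted p = 0.00685), and MCF10AT1 against MCF10A gave 0.02 (adjusted p = 0.910).

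The size of the GAS5 rise depended on the scale. On log2(TPM + 1) it was 0.81 against MCF10A (limma adjusted p = 1.06e-05) and 0.74 against MCF10AT1 (adjusted p = 2.41e-05), beside medians of 0.08 and 0.19 over all genes. Without MCF10A replicate 1, the library with the lowest GAS5 level, the rise against MCF10A was 0.24 (edgeR adjusted p = 0.00629).

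SNHG1, the other snoRNA host of the 10, moved the opposite way. GENCODE 29 places 7 snoRNA genes within it, among them SNORD22 and SNORD25 to SNORD28. CPM was 103, 134 and 149 in MCF10A, 127, 124 and 138 in MCF10AT1, then 71.9, 75.9 and 64.9 in MCF10Ca1a, with the last 3 libraries below all others. SNHG1 was 1.82-fold lower in MCF10Ca1a than in MCF10A (log2 fold change -0.86, SE 0.108, edgeR adjusted p = 5.11e-06) and 1.83-fold lower than in MCF10AT1 (-0.87, SE 0.108, adjusted p = 4.99e-06). MCF10AT1 against MCF10A gave 0.01 (adjusted p = 0.952), and without MCF10A replicate 1 this was -0.13 for both SNHG1 and GAS5.

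Other snoRNA hosts did not move one way. Of 27 tested, 11 were higher and 3 lower in MCF10AT1 than in MCF10A, 8 higher and 17 lower in MCF10Ca1a than in MCF10AT1, and 8 higher and 12 lower in MCF10Ca1a than in MCF10A. Of all genes 29.8%, 38% and 39% were higher and 31.8%, 40.3% and 41.9% lower in these comparisons. The medians of the 27 hosts were 0.17, -0.38 and -0.20, beside -0.0038, -0.04 and -0.05 over all genes. Without MCF10A replicate 1 the counts were 11 higher and 5 lower in MCF10AT1 than in MCF10A (median 0.07) and 7 higher and 14 lower in MCF10Ca1a than in MCF10A (median -0.34). Without MCF10AT1 replicate 3 they were 9 higher and 3 lower in MCF10AT1 than in MCF10A (median 0.09). SNHG30 rose from 3.43 CPM in MCF10A to 10.1 in MCF10Ca1a (log2 fold change 1.56, SE 0.105, adjusted p = 5.80e-09) and SNHG26 fell from 14.7 to 2.05 CPM (-2.84, SE 0.160, adjusted p = 8.58e-10).

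Genes of the NMD machinery, which degrades spliced snoRNA host transcripts, were mostly higher in MCF10Ca1a. Of 16 tested, 13 were higher and 2 lower in MCF10Ca1a than in MCF10AT1 (median 0.85 beside -0.04 over all genes), and 11 higher and 3 lower than in MCF10A (median 0.47 beside -0.05). Of all genes 38% were higher and 40.3% lower in the first comparison, and 39% and 41.9% in the second. In MCF10AT1 against MCF10A 2 of the 16 were higher and 8 lower, where 29.8% of all genes were higher and 31.8% lower. CASC3, a core component of the exon junction complex, rose from 79.7 CPM in MCF10A to 254 in MCF10Ca1a (1.67, SE 0.0548, adjusted p = 3.02e-12), while RBM8A, another core component, fell from 286 to 125 CPM (-1.20, SE 0.0546, adjusted p = 8.82e-11).

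Translation factor genes with 5-prime TOP starts, the pyrimidine-rich starts that GAS5 and many snoRNA hosts share, gave 4 higher and 9 lower of 18 in MCF10Ca1a against MCF10A (median -0.14, beside -0.05 over all genes). EEF2, an elongation factor, rose by 0.95 on the log2 scale (SE 0.0796, adjusted p = 6.72e-08), and EEF1G, a subunit of another, fell by 0.83 on the log2 scale (SE 0.0655, adjusted p = 3.68e-08).

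The genes next to the snoRNA hosts changed in both directions. ZBTB37, which shares its start region with GAS5 on the opposite strand, went from 11.1 CPM in MCF10A and 9.52 in MCF10AT1 to 37.8 in MCF10Ca1a (log2 fold change against MCF10A 1.77, SE 0.0903, adjusted p = 3.00e-10), and RC3H1, which encodes the mRNA decay factor roquin, from 26.1 and 15.8 to 57.8 CPM. WDR74, next to SNHG1, fell with it, from 54.5 to 47.3 and 33.5 CPM (MCF10Ca1a against MCF10A -0.70, adjusted p = 3.02e-08), and SLC3A2, an amino acid transporter subunit on its other side, was at 336, 256 and 342 CPM (0.03, adjusted p = 0.817).

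H19, an imprinted RNA that is high in the embryo and low in most adult tissue, was low in all 3 lines. CPM was 5.07, 3.34 and 3.52 in MCF10A, 3.01, 3.30 and 3.88 in MCF10AT1, then 1.93, 1.84 and 1.95 in MCF10Ca1a, which rest on 62 to 69 counts a library in MCF10Ca1a. The MCF10Ca1a libraries were the lowest 3. H19 was 2.08-fold lower in MCF10Ca1a than in MCF10A (log2 fold change -1.06, SE 0.173, edgeR adjusted p = 6.48e-05) and 1.78-fold lower than in MCF10AT1 (-0.83, SE 0.175, adjusted p = 6.06e-04), and MCF10AT1 against MCF10A gave -0.23 (adjusted p = 0.220).

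The H19 difference from MCF10AT1 kept its call under 14 of 19 other settings and lost it on the scaled count tables and on TPM. It was -0.49 with length-scaled counts (edgeR adjusted p = 0.0532), -0.49 with scaled counts (adjusted p = 0.0750) and -0.13 on log2(TPM + 1) (limma adjusted p = 0.451), beside a median of 0.19 over all genes on that scale. It was -0.20 on log2(TPM + 0.1) (adjusted p = 0.419), and -0.13 on log2(TPM + 1) without a filter on low values (adjusted p = 0.607). Against MCF10A the fall of H19 was -0.40 on log2(TPM + 1) (limma adjusted p = 0.0322), and it was not called there without a filter on low values (-0.40, adjusted p = 0.102). ENST00000428066.7 held 16.4% of the H19 counts in MCF10A and 11.7% in MCF10AT1 and was at 0 in all 3 MCF10Ca1a libraries (limma adjusted p for the share = 2.19e-04 against MCF10A and 6.12e-04 against MCF10AT1, the latter 0.0655 with an offset of 5 counts).

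IGF2, the partner of H19 that is expressed from the paternal copy, was at 0.0203, 0.0254 and 0.0192 CPM on average and was not tested. MRPL23, a mitochondrial ribosomal protein gene on its other side, was at 45.6 CPM in MCF10A, 59.7 in MCF10AT1 and 30.1 in MCF10Ca1a, so that it rose in MCF10AT1 (0.39, adjusted p = 3.00e-04) and fell in MCF10Ca1a against MCF10A (-0.60, adjusted p = 4.44e-06).

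MEG3, a maternally expressed RNA with growth-suppressing activity, was at 0 counts in all 9 libraries and in all 50 of its listed transcripts. A count of 0 allows up to 3 counts, which is 0.0430 to 0.0483 CPM in the MCF10A and MCF10AT1 libraries and 0.0838 to 0.0891 CPM in the MCF10Ca1a libraries, counting error only. Farther from MEG3, WDR25 was at 5.25, 4.4 and 2.88 CPM (MCF10Ca1a against MCF10A -0.87, adjusted p = 4.82e-06) and BEGAIN, a synapse-associated gene, at 1.20, 1.20 and 0.326 CPM (-1.88, adjusted p = 1.30e-05).

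Imprinted genes at large moved in both directions, with 15 of 30 tested. In MCF10Ca1a against MCF10A 7 were higher and 7 lower (median -0.24, beside -0.05 over all genes). In MCF10AT1 against MCF10A 8 were higher and 6 lower (median 0.24, beside -0.0038). Of all genes 39% were higher and 41.9% lower in the first comparison, and 29.8% and 31.8% in the second. PLAGL1, a zinc finger gene that regulates an imprinted gene network, fell from 44.6 CPM in MCF10A through 20.9 in MCF10AT1 to 2.03 in MCF10Ca1a (-4.46, SE 0.0768, adjusted p = 8.11e-15). NAP1L5, a nucleosome assembly protein gene, rose from 0.244 CPM to 3.81 in MCF10AT1 and 4.05 in MCF10Ca1a (4.03 for MCF10Ca1a against MCF10A, SE 0.206, adjusted p = 3.07e-10).

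HOTAIR, transcribed antisense within the HOXC cluster and known for binding chromatin-modifying complexes, was low but highest in MCF10Ca1a. Its CPM was 0.951, 0.988 and 0.630 in MCF10A, 1.21, 1.16 and 1.24 in MCF10AT1, then 2.65, 2.70 and 1.80 in MCF10Ca1a, from 44 to 95 counts a library. The libraries of the 3 lines did not overlap. HOTAIR was 2.79-fold higher in MCF10Ca1a than in MCF10A (log2 fold change 1.48, SE 0.204, edgeR adjusted p = 1.24e-05) and 1.98-fold higher than in MCF10AT1 (0.98, SE 0.197, adjusted p = 4.14e-04).

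The difference between MCF10AT1 and MCF10A was 1.41-fold (0.50, SE 0.204, adjusted p = 0.0494) and stood at the edge of the threshold. It was not called by DESeq2 (0.49, adjusted p = 0.0757) or on log2(TPM + 1) (0.16, limma adjusted p = 0.204), and the call was kept under 7 of 19 other settings, with adjusted p from 0.0290 to 0.403. Leaving out libraries one at a time gave adjusted p from 0.0318 to 0.194, and it was lost without MCF10A replicate 3 (0.31, adjusted p = 0.194), MCF10AT1 replicate 1, 2 or 3 (adjusted p = 0.0954, 0.0788 and 0.110), or MCF10Ca1a replicate 1 or 2 (adjusted p = 0.0568 and 0.0539).

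The HOXC genes, which encode homeodomain factors that specify position along the body axis, moved in both directions. Of 8 protein genes tested, 3 were higher and 5 lower in MCF10Ca1a than in MCF10A, where 39% of all genes were higher and 41.9% lower. HOXC13 (7.49, 14.3 and 19.7 CPM in MCF10A, MCF10AT1 and MCF10Ca1a), HOXC11 (5.10, 4.95 and 11.3) and HOXC10 (0.178, 0.479 and 0.788) rose against MCF10A by 1.39 (adjusted p = 1.25e-10), 1.15 (adjusted p = 2.46e-08) and 2.11 (adjusted p = 1.86e-05) on the log2 scale. HOXC9 (8.44, 8.09 and 2.77 CPM), HOXC8 (12.2, 14.1 and 0.926), HOXC6 (9.25, 4.33 and 1.58) and HOXC4 (0.157, 0.0975 and 0.0186) fell, with edgeR adjusted p of 2.74e-09, 1.38e-12, 2.90e-10 and 0.0133. HOXC4 rested on means of 10.5, 6.21 and 0.667 counts, and HOXC10 on 11.9, 31.3 and 27.7.

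HOXC5 went from 3.23 CPM in MCF10A and 1.21 in MCF10AT1 to 0 in all 3 MCF10Ca1a libraries, at least 37.7-fold lower than in MCF10A when 3 counts per library are taken as the floor. HOXC11 and HOTAIR overlap on opposite strands and moved in the same direction in MCF10Ca1a against MCF10A, and the share of their reads that was assigned to the wrong strand was not tested.

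**Figure D4:**
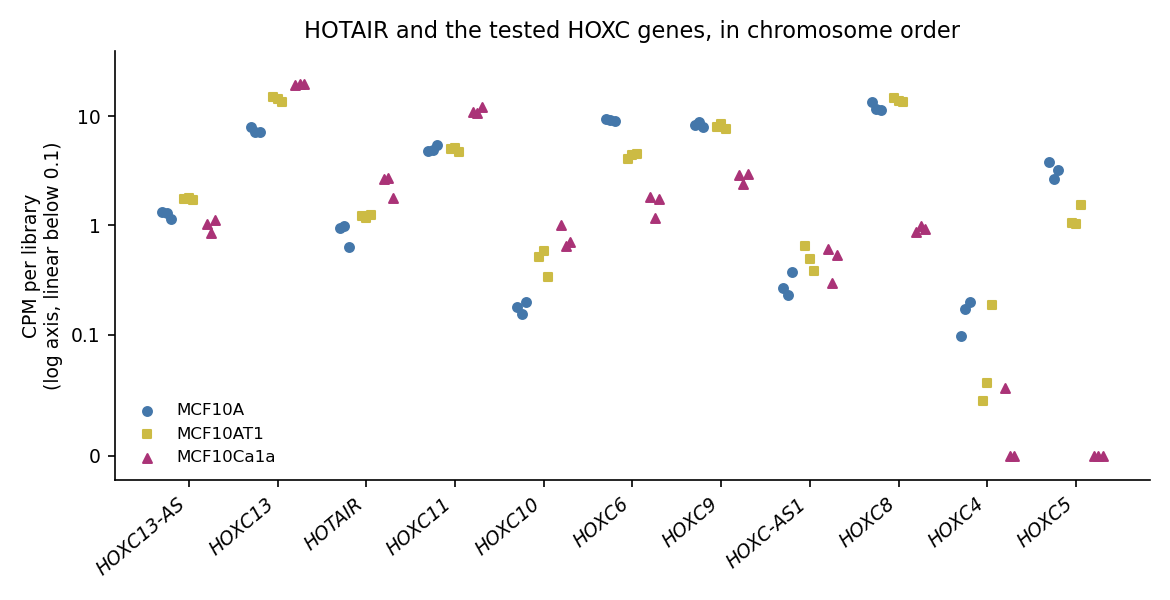
CPM per library of HOTAIR and the tested HOXC genes on a log axis that is linear below 0.1, in the order of their start positions on chromosome 12. MCF10Ca1a libraries are the highest for HOXC13, HOTAIR, HOXC11 and HOXC10 and the lowest for HOXC6, HOXC9 and HOXC8, and they are at 0 for HOXC5.

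MIR31HG, the host of miR-31 on chromosome 9, had the largest change of the 9 between MCF10AT1 and MCF10A. Its CPM was 0.935, 1.19 and 1.16 in MCF10A, 7.64, 7.32 and 6.35 in MCF10AT1, then 2.18, 2.29 and 2.20 in MCF10Ca1a. No library of a line overlapped with another line, and MCF10AT1 was the highest. MIR31HG was 6.47-fold higher in MCF10AT1 than in MCF10A (log2 fold change 2.69, SE 0.124, edgeR adjusted p = 4.20e-10). It was 3.20-fold lower in MCF10Ca1a than in MCF10AT1 (-1.68, SE 0.122, adjusted p = 1.68e-08) and 2.02-fold higher than in MCF10A (1.02, SE 0.140, adjusted p = 1.20e-05).

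On log2(TPM + 1), which compresses low values, the MIR31HG changes were 1.66 in MCF10AT1 against MCF10A and -0.86 in MCF10Ca1a against MCF10AT1, and both were called. The transcript ENST00000701417.1 was at 0 in all MCF10A libraries and held 10.5% ± 2.59 and 11.1% ± 6.23 of the MIR31HG counts in MCF10AT1 and MCF10Ca1a (SD, n = 3). Its share was called higher in both lines against MCF10A (limma adjusted p = 0.00687 and 0.00121), but not when the share was taken from transcript TPM (adjusted p = 0.223 and 0.117). With an offset of 5 counts the call was also lost in MCF10AT1 (adjusted p = 0.197) and not in MCF10Ca1a (adjusted p = 0.0196).

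The neighbours of MIR31HG were low as well, and CDKN2A and CDKN2B, tumour suppressor genes of the same region, were at 0 counts in all 3 lines. IFNE, an epithelial interferon gene inside the MIR31HG intron, was at 0.101, 0.597 and 0.0775 CPM in MCF10A, MCF10AT1 and MCF10Ca1a. These rest on means of 6.67, 38.7 and 2.67 counts. IFNE was higher in MCF10AT1 than in MCF10A by 2.54 (SE 0.348, edgeR adjusted p = 2.51e-05). DMRTA1, a transcription factor gene beyond these, was at 0.376, 1.99 and 1.86 CPM and rose in both derivatives (2.39 and 2.29 against MCF10A, adjusted p = 8.63e-08 and 7.69e-08). MTAP, a methionine salvage enzyme, was at 0.0362 CPM in MCF10A (a mean of 2.33 counts), 0.244 in MCF10AT1 and 4.48 in MCF10Ca1a, called higher in MCF10Ca1a against MCF10A (adjusted p = 1.50e-10).

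PVT1 (chr8:127794533-128101253, plus strand), the neighbour of MYC, rose at both steps. Its CPM was 18.2, 19.8 and 21.6 in MCF10A, 24.7, 23.7 and 24.8 in MCF10AT1, then 62.1, 63.4 and 61.7 in MCF10Ca1a, with no overlap between the lines. PVT1 was 1.23-fold higher in MCF10AT1 than in MCF10A (log2 fold change 0.29, SE 0.0608, edgeR adjusted p = 8.55e-04), 2.56-fold higher in MCF10Ca1a than in MCF10AT1 (1.35, SE 0.0601, adjusted p = 9.42e-11) and 3.14-fold higher than in MCF10A (1.65, SE 0.0609, adjusted p = 1.04e-11). The first step was 0.15 on log2(TPM + 1) (limma adjusted p = 0.0381).

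MYC itself was at 450 CPM in MCF10A, 457 in MCF10AT1 and 526 in MCF10Ca1a, 0.22 higher in MCF10Ca1a than in MCF10A (SE 0.0576, adjusted p = 0.00265). POU5F1B, a retrotransposed copy of POU5F1 on the other side of MYC whose reads may be shared with its parent gene, was at 0.748, 0.633 and 5.78 CPM (2.94 for MCF10Ca1a against MCF10A, SE 0.138, adjusted p = 1.23e-10), and CASC11, a long noncoding RNA beside MYC, at 0.105, 0.246 and 0.449 CPM. GSDMC, a gasdermin gene beyond PVT1, was at 1.53, 3.72 and 1.64 CPM, called higher in MCF10AT1 against MCF10A (1.28, adjusted p = 1.40e-06) and not called in MCF10Ca1a against MCF10A (0.10, adjusted p = 0.543).

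TUG1, an abundant RNA that was first described in the retina, was not called in any comparison by edgeR. Its CPM was 133, 139 and 135 in MCF10A, 126, 123 and 139 in MCF10AT1, then 134, 134 and 116 in MCF10Ca1a, with overlap between all 3 lines. The log2 fold changes were -0.07, -0.02 and -0.09 in MCF10AT1 against MCF10A, MCF10Ca1a against MCF10AT1 and MCF10Ca1a against MCF10A, with SE of 0.0663 to 0.0669 and edgeR adjusted p of 0.371, 0.831 and 0.239. On log2(TPM + 1) TUG1 was called higher in MCF10Ca1a than in MCF10AT1 (0.26, limma adjusted p = 0.0140), where the median of all genes was shifted by 0.19. Without a filter on low counts it was called lower in MCF10Ca1a than in MCF10A (-0.16, edgeR adjusted p = 0.0234). None of its 9 tested transcripts changed its share.

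Near TUG1, SELENOM, a selenoprotein gene of the endoplasmic reticulum, fell from 10.1 CPM in MCF10A to 0.743 in MCF10AT1 and 0.676 in MCF10Ca1a (-3.76 and -3.90 against MCF10A, adjusted p = 6.03e-11 and 2.84e-11). MORC2, a chromatin silencing gene on the other side, was at 39.6, 29.6 and 34.2 CPM.

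The promoters of 3 of the RNAs are shown because MALAT1 and SNHG1 had the most similar profiles and TUG1 was not called. Across the 9 libraries MALAT1 and SNHG1 had the closest profiles of any pair among the 9 tested RNAs, with a root mean square distance of 0.116 between their centred log2 CPM values. RefSeq promoter windows (GRCh38.p14, 250 bases before to 50 after the annotated start) were given for 7 of the 10 genes, in 10 windows. Each window was searched on both strands for CACGTG (the E-box that MYC binds), TGANTCA (the AP-1 site) and CCGGAA (the core of the ETS site), and matches are in capitals. The windows are chr22:30969015-30969314 (plus strand) for TUG1, chr11:65498795-65499094 (plus strand) for the second start of MALAT1, shown because it holds a match, and chr11:62855836-62856135 (minus strand) for SNHG1.
TUG1 promoter: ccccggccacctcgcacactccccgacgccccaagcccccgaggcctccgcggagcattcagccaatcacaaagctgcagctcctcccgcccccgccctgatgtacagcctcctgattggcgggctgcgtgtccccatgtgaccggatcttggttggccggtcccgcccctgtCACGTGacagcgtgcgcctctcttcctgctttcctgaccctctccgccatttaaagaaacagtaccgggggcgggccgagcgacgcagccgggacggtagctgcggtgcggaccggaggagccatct
MALAT1 promoter: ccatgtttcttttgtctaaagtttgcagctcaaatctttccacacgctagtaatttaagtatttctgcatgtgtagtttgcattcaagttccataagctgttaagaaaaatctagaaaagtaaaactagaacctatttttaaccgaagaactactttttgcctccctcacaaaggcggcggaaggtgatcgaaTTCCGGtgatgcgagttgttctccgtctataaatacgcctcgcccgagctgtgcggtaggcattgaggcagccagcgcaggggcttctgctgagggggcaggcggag
SNHG1 promoter: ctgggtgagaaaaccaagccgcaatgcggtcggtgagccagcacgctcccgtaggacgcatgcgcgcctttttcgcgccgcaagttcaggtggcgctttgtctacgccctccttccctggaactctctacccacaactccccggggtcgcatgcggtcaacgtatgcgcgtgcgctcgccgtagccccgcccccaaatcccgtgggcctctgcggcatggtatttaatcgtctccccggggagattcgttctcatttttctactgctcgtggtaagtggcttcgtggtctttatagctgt

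CACGTG was found once in the TUG1 window and in none of the windows of the other 6 genes searched. Of all 35116 promoter windows 7.26% hold it. The most abundant MALAT1 transcripts, ENST00000619449.2 and ENST00000534336.2, start in the other MALAT1 window, which holds none of the motifs, and ENST00000544868.2, which starts in the second window, averaged 0 to 0.652 CPM in the 3 lines. CCGGAA was found, on the opposite strand, in the second MALAT1 window and in the 3 overlapping MEG3 windows, where 17.25% of all windows hold it, and TGANTCA in none, where 7.71% hold it. The MIR31HG window had a GC content of 77.7% and the GAS5 window 37.7%, beside a median of 58.7% over all windows. Both windows lie wholly upstream of the gene starts in GENCODE 29 (21559669 for MIR31HG and 173868882 for GAS5, minus strand). Which start the counted transcripts use was not tested.

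Other genes with the most similar profile over the 9 libraries were RIOK3 for PVT1 (root mean square distance 0.0461), TXNDC9 for SNHG1 (0.0519), CYB5A for GAS5 (0.0655), C10orf95-AS1 for MALAT1 (0.0923), KIF9 for NEAT1 (0.104), MEX3D for H19 (0.108), MAP2K5-DT for HOTAIR (0.163) and RORA for MIR31HG (0.165). RIOK3, a kinase gene, was at 67.1, 78.8 and 208 CPM in the 3 lines. These distances are descriptions over 9 libraries of 3 lines.

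Of 195 tested transcripts of the 10 genes, 10 changed their share in MCF10AT1 against MCF10A, 17 in MCF10Ca1a against MCF10AT1 and 29 in MCF10Ca1a against MCF10A, by limma on log2 values of a transcript over all others of the gene, at an adjusted p under 0.05. Of all 65573 transcripts tested 2.75%, 16.6% and 21.4% passed, so that the share among the 10 genes was above that of all transcripts in MCF10AT1 against MCF10A and below it in both comparisons with MCF10Ca1a. GAS5 held 69 of the 195 tested transcripts and 17 of the 29 that changed in MCF10Ca1a against MCF10A, 9 with a higher and 8 with a lower share.

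In GAS5 the transcript ENST00000687189.1 was at 0 in the MCF10A libraries, at 4.05%, 3.28% and 2.07% of the GAS5 counts in MCF10AT1, then at 15.2%, 14.2% and 16.0% in MCF10Ca1a. The 3 lines did not overlap, and the share was called in each comparison (limma adjusted p = 1.41e-05, 0.00373 and 2.26e-06). ENST00000650796.1 went the other way, with means of 13.5%, 5.59% and 2.85% (adjusted p = 4.70e-05 for MCF10Ca1a against MCF10A). The most abundant transcript, ENST00000689238.1, held 19% ± 0.542, 22.9% ± 0.222 and 27.1% ± 0.283 (SD, n = 3; adjusted p = 0.00189 for MCF10Ca1a against MCF10A), a call that was lost on transcript TPM (adjusted p = 0.127).

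SNHG1 showed a like shift in 2 transcripts. ENST00000686081.1 was at 0 in MCF10A, at 1.41% ± 0.419 in MCF10AT1 and at 6.64% ± 0.522 in MCF10Ca1a (adjusted p = 5.03e-06 for MCF10Ca1a against MCF10A), and ENST00000686500.2 held 2.02% ± 0.183, 7.61% ± 0.511 and 9.64% ± 1.25 (adjusted p = 9.67e-05). In PVT1, ENST00000662766.1 was at 0 in MCF10A, at 6.12% ± 1.45 in MCF10AT1 and at 9.37% ± 1.66 in MCF10Ca1a (adjusted p = 5.01e-06), while ENST00000664214.1, the PVT1 transcript with the largest mean share over the 9 libraries, held 9.81%, 9.23% and 8.76% and was not called. A 0 for a transcript whose gene is expressed can come from the way reads are divided among near-identical transcripts, which was not tested.

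**Figure D5:**
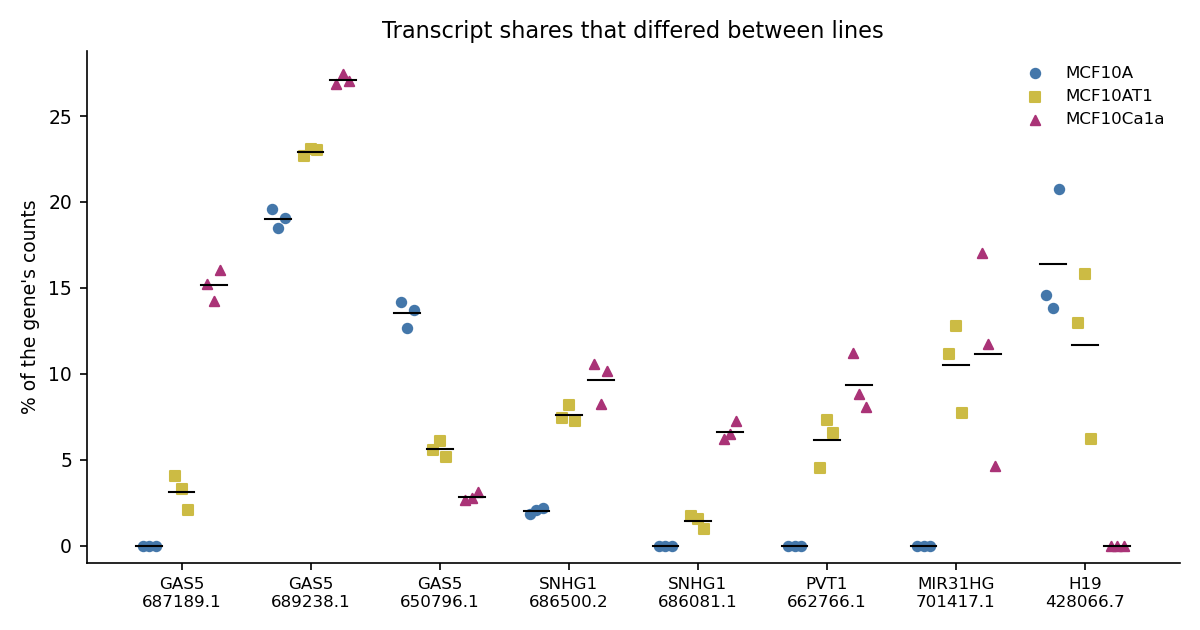
Share of the counts of the gene, in percent, for 8 transcripts, 1 point per library with a bar at the mean of each line. ENST00000687189.1 of GAS5 goes from 0 in MCF10A to 3.13% in MCF10AT1 and 15.1% in MCF10Ca1a, and ENST00000428066.7 of H19 is at 0 in MCF10Ca1a only.

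Other long noncoding RNAs linked to cancer also moved in both directions. Of 40 tested from a list of 60, 15 were higher and 11 lower in MCF10AT1 than in MCF10A, and 20 rose and 13 fell from MCF10A to MCF10Ca1a. Of all long noncoding genes tested 28.8% were higher and 18.1% lower in the first comparison, and 45% and 27.2% in the second. The first split of the 40 was 11 higher and 13 lower without MCF10A replicate 1. It was 11 higher and 9 lower without MCF10AT1 replicate 3. The median was 0.45 in MCF10Ca1a against MCF10A, beside 0.43 over all long noncoding genes tested. UCA1, an RNA first described in bladder carcinoma, rose from 0.230 CPM in MCF10A and 0.839 in MCF10AT1 to 36.8 in MCF10Ca1a (log2 fold change against MCF10A 7.30, SE 0.114, adjusted p = 4.03e-15). CASC15, an RNA at a neuroblastoma susceptibility locus, fell from 1.17 CPM and 0.674 CPM to a mean of 0.0188 CPM, from 0.667 counts a library (adjusted p = 2.96e-07).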

How the data were processed

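Polyadenylated RNA of 3 lines was sequenced in 3 libraries each. Per the submitters' processing notes, Salmon was used with hg38, and versions, annotation release and strand setting are not given in the sources used here. The authors deposited estimated counts per gene and transcript, gene counts named length-scaled and scaled, and TPM values. Columns were matched to libraries by name.

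Estimated counts were rounded. A filter on low counts (filterByExpr, grouped by line, with its count limit at 10 and its total limit at 15) kept 17910 of 62666 genes. All 9 libraries entered 1 edgeR 4.0.16 quasi-likelihood fit (R 4.3.3, TMM, Benjamini-Hochberg over all genes, threshold 0.05). CPM uses TMM-scaled totals, and SDs are over 3 libraries. Transcript shares were tested with limma 3.58.1 on log2 ratios with 0.5 counts added, for transcripts with a mean of at least 10 counts. DESeq2 1.42.0, TPM scales, other count tables, no filter, a replicate block, 6-library fits and leaving out each library were alternatives.

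On simulated data edgeR recovered 96% and 95% of 200 genes changed 2-fold among 17406 genes in MCF10Ca1a against MCF10AT1 and against MCF10A, with 13 and 15 false calls. The changed genes were drawn from those with higher counts, up and down in equal number, and all others were left unchanged. In the data 78.4% and 80.9% of genes passed in these comparisons. Recovery under so broad a change was not simulated. The share test recovered 65.5% and 58.5% of 200 transcripts changed 4-fold among 62397.

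The members and lists were chosen with earlier results of these data known. Named from each list were the genes that rose and fell most in MCF10Ca1a against MCF10A among called genes whose higher line averaged 50 or more counts, and neighbours with a mean of at least 10 counts in some line. For transcripts, the one with the largest share and the one with the smallest p of each gene were named, and ENST00000499732.3, ENST00000534336.2, ENST00000650796.1 and ENST00000686500.2 were added after their values were seen, as were IGF2, CDKN2A and CDKN2B, which are at or near 0. Some genes that these rules name are not reported here. Positions came from GENCODE 29 through unversioned identifiers, which matched 58227 genes (92.9%). Floors of 3 counts cover counting error only. Mean, median and rank descriptions carry no test.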

Additional observations from a re-analysis of the deposited data

How the results depend on the processing

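Replicate numbers did not pair the libraries: same-numbered libraries correlated between -0.0597 and 0.0451 in their deviations from the line means, and 0 of 9 libraries correlated best with its own number. The fit with the replicate number as a block gave 10 transcripts of the 10 genes with a changed share in MCF10Ca1a against MCF10AT1 where 17 were called without it, and leaving out each library gave 11 to 21, with 11 without MCF10AT1 replicate 1. Without a filter on low counts 5 of the RNAs instead of 3 were called in MCF10AT1 against MCF10A, with MALAT1 (0.25, edgeR adjusted p = 8.69e-04) and NEAT1 (0.17, adjusted p = 0.0351) added. MALAT1 was also called there without MCF10A replicate 3 (0.34, adjusted p = 0.0409). The other counts of called RNAs, and all counts of called genes, stayed within 1.5 times. Of the changes of single RNAs, 14 turned sign, all in values that edgeR had not called: TUG1 in MCF10Ca1a against MCF10AT1 (0.030 with DESeq2 size factors and with DESeq2, 0.26 on log2(TPM + 1) with and without a filter, 0.27 on log2(TPM + 0.1), and -0.065 to 0.047 on leaving out each library), TUG1 against MCF10A (0.062 on log2(TPM + 1) with and without a filter, 0.064 on log2(TPM + 0.1)), and GAS5 and SNHG1 in MCF10AT1 against MCF10A (-0.13 to 0.16 and -0.13 to 0.12 on leaving out each library, below 0 without MCF10A replicate 1 or MCF10AT1 replicate 3). TUG1 also turned sign against MCF10AT1 without MCF10AT1 replicate 3 (0.025). The cause was not tested. Of the other settings, 475 kept direction and call, 20 lost a call and 4 gained one, and the losses were in HOTAIR (MCF10AT1 against MCF10A), H19 and MALAT1. HOTAIR rested on 44 to 95 counts a library, and MIR31HG on 60 to 81 outside MCF10AT1. MIR31HG kept direction and call in 19 of 19 settings in each comparison. Counts of called genes in each list without MCF10A replicate 1 or MCF10AT1 replicate 3 were added after seeing the data. In both directions together they stayed within 1.5 times. By direction, without MCF10A replicate 1, 5 snoRNA hosts in place of 3 were lower and 2 speckle genes in place of 1 were higher in MCF10AT1 against MCF10A.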
